A study of Mus musculus with 9 samples.

Results

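The mitochondrial genome transcripts are the 37 genes of the deposited count table that lie on the mitochondrial chromosome, chrM, of the mouse genome build mm10. They were taken by chromosome alone, from 55401 genes listed, and comprise 13 mRNAs, 2 ribosomal RNAs (rRNAs) and 22 transfer RNAs (tRNAs). Of the tRNA genes, 14 lie on the plus strand of the 16299-base chromosome and 8 on the minus strand, as does 1 of the mRNA genes, mt-Nd6. All 37 had the same coordinates in the GENCODE annotation of that build.

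As part of its work on how N4-acetylcytidine (ac4C), an acetylated cytidine, is formed on mRNA, the study asked which testis transcripts carry it. Its acRIP-seq assay incubated polyadenylated RNA of wild-type (WT) mouse testes, by the methods from ICR mice, with beads carrying an anti-ac4C antibody and sequenced what was recovered. Of the 9 libraries, 3 hold RNA set aside before precipitation with no antibody (Input), 3 hold what beads with a rabbit isotype control brought down (IgG), and 3 hold what the ac4C antibody brought down (acRIP). In all 3 groups polyadenylated RNA had been selected on oligo(dT) beads and libraries were made by Smart-seq2, which starts reverse transcription from oligo(dT) primers. The amount of starting RNA was set in Input alone. Input RNA was diluted to a fixed concentration, while RNA of IgG and acRIP was too scarce to measure and was used at the same volume. Effects of precipitation and of starting amount therefore cannot be told apart in comparisons with Input. Between IgG and acRIP the starting amounts are unknown and may differ as well, so the same limit holds there. By the methods, an ac4C-containing β-globin probe was added before precipitation. No age, tissue fraction or pooling of mice was given in the sources used here, and the labels number the libraries without saying what a number stands for, so p-values measure the spread between these libraries, which may be technical.

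Mammalian mitochondria transcribe both strands of their circular genome as long precursors, from which tRNAs are cut out like punctuation marks between the mRNAs and rRNAs. The mRNAs encode membrane subunits of respiratory complexes I, III, IV and V, and most receive a poly(A) tail, while the rRNAs form the mitochondrial ribosome and carry only short adenine tails. Germ cells remodel their mitochondria during spermatogenesis, and the mature sperm midpiece is packed with them.

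Total counts on genes ranged from 22023925 to 31340090 in Input, from 14647542 to 18786779 in IgG and from 16025779 to 18639134 in acRIP libraries. Genes with a count numbered 28552 to 29642 in Input, 26204 to 26874 in IgG and 22206 to 22402 in acRIP libraries. Markers of the labelled tissue were present in every library, with 5 spermatid markers summing to between 17229 and 21253 CPM (counts scaled to a library total of 1000000). Among 4 epididymis markers, Lcn5 and Adam28 were at 0 in every library. The other 2 summed to 11.9 to 13.7 CPM in Input, 10.5 to 12.6 in IgG and 28.9 to 29.9 in acRIP. Since these are bulk samples, fewer cells of a type and less RNA per cell cannot be told apart. Between 81.9% and 84.3% of the genes with 1 to 20 counts had an even count, so both mates of a read pair were probably counted. A count of 0 therefore allows up to 3 counts, or 6 where pairs were counted, and these limits, like the intervals given, cover counting error only.

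The mitochondrial genome took a larger share of each precipitated library than of any Input library, and the class of RNA behind that share differed among the groups. Its 37 genes held 0.687%, 0.725% and 0.771% of the counts of the 3 Input libraries, 1.39%, 1.42% and 1.505% in IgG and 1.53%, 1.52% and 1.59% in acRIP. The groups did not overlap. The share was 2.13-fold higher in acRIP than in Input, 1.98-fold higher in IgG than in Input, and 1.07-fold higher in acRIP than in IgG. Each of these differences had p = 0.1 in a two-sided exact permutation test over libraries, which is the smallest value that 3 against 3 libraries can give. The acRIP over IgG direction turned without the rRNAs, to −0.47 on the log2 scale, and when shares were taken of summed FPKM (CPM divided by the gene length in kilobases), to −0.58.

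In Input the mRNAs held 83.1% to 85.1% of all mitochondrial counts and the rRNAs 14.6% to 16.2%, with 0.375% to 0.707% for the tRNAs. In IgG the 3 classes were of like size, at 36.1% to 37.4% for mRNAs, 31.6% to 31.7% for rRNAs and 30.9% to 32.2% for tRNAs. In acRIP the rRNAs led with 52.5% to 56.0%, before mRNAs with 26.3% to 29.4% and tRNAs with 15.6% to 21.2%. No class of any group overlapped the same class of another group. Nearly all counts of the tRNA class were on a single gene, mt-Tq, which made up 96.6% to 99.3% of the tRNA counts of every library. The tRNA genes are shorter than a read and lie beside other genes. The methods do not state how reads that touch a neighbouring gene were counted, so these counts cannot be read as tRNA levels.

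**Figure D1:**
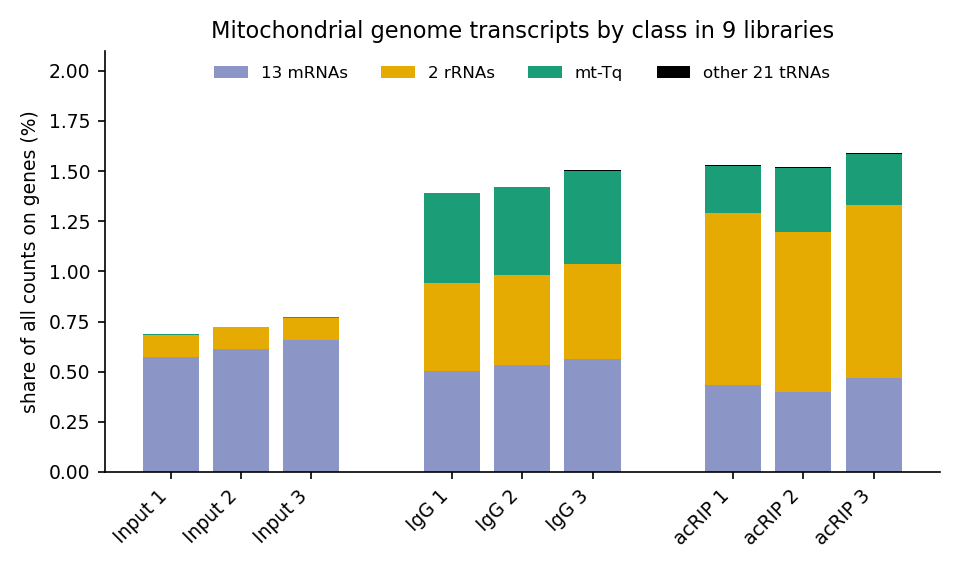
Share of all counts on genes (%, bar height) held by mitochondrial mRNAs, rRNAs, the tRNA gene mt-Tq and the remaining tRNAs in each of the 9 libraries. The mRNA segment takes 0.571% to 0.656% of a library in Input and 0.400% to 0.466% in acRIP, while the rRNA segment grows from about 0.11% in Input to between 0.799% and 0.863% in acRIP and mt-Tq appears as a visible band only in IgG and acRIP.

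Of the 37 genes, 20 passed the filter on low counts and were tested by edgeR in a single fit of all 9 libraries and 22510 genes, namely 10 mRNAs, 2 rRNAs and 8 tRNAs. A gene was called where the adjusted p was under 0.05 and the fold change over 2. In acRIP over Input, 11 of the 20 were higher and 0 were lower, beside 17.7% of all tested genes called higher and 22.9% called lower. The 11 were both rRNAs, 8 tRNAs and 1 mRNA. In IgG over Input, 12 were higher (both rRNAs, 8 tRNAs and 2 mRNAs) and 0 lower, beside 13.5% and 7.22% of all genes. Between the precipitates, acRIP over IgG, 0 were higher and 1 was lower, beside 11.5% and 20.9%. At an unadjusted p under 0.05 and any fold, edgeR gave 3 higher and 6 lower members in acRIP over IgG, 2 lower in acRIP over Input and 3 lower in IgG over Input. The share of all genes at that looser limit was not computed. With the limits for a call, DESeq2 also called 0 members lower in either comparison with Input and 0 higher in acRIP over IgG. Of the 8 tested tRNAs, only mt-Tq had at least 10 counts in every Input library, so the other 7 passed the filter through the libraries in which they were high and their number says nothing about the class. In a separate fit of the genes that no library had under 10 counts of, which left 11 members (8 mRNAs, 2 rRNAs and mt-Tq), mt-Rnr1, mt-Rnr2, mt-Tq, mt-Nd2 and mt-Nd6 were called higher in both comparisons with Input. Of all 16047 genes of that fit, 2495 were called higher in acRIP over Input and 1906 in IgG over Input. mt-Nd6 in acRIP over Input was at the limit, at 1.003 there against 0.994 and not called in the fit of 22510 genes.

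Median log2 fold changes of acRIP over Input were 0.30 for the tested mRNAs and −0.10 for all tested genes, and the 2 rRNAs stood at 2.67 and 3.02. In IgG over Input the medians were 0.29 for the mRNAs, which moved to 0.12 without IgG replicate 3 and to 0.48 without IgG replicate 1, and −0.01 for all genes. For acRIP over IgG they were −0.16, which moved to −0.060 without IgG replicate 3 and to −0.073 without acRIP replicate 2, and −0.09. Because acRIP and IgG were both compared with the same Input libraries, the 2 comparisons with Input are not independent of each other.

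**Figure D2:**
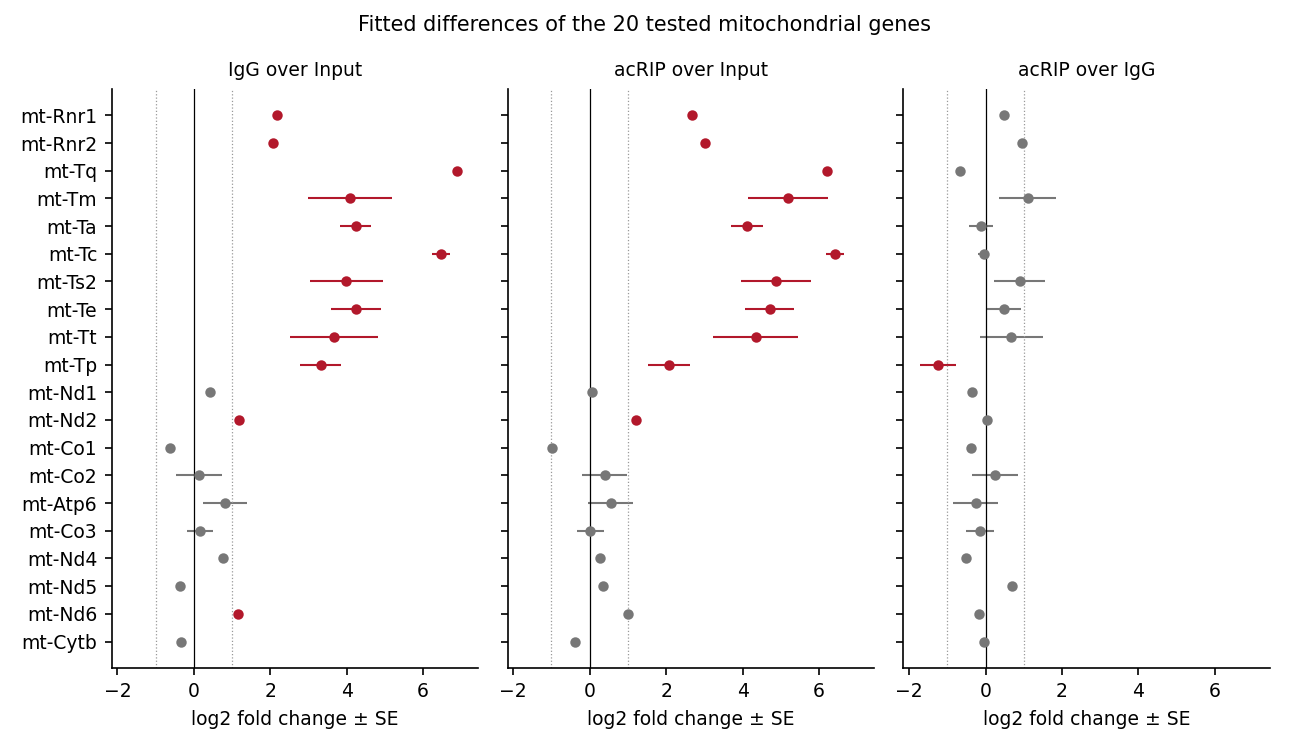
Fitted log2 fold change (points) with its standard error (bars, n = 3 libraries a group) of the 20 tested mitochondrial genes in 3 comparisons, red where called and grey where not, with dotted lines at 2-fold. Against Input, rRNAs and tRNAs lie to the right of the 2-fold line in both comparisons and most mRNAs lie between the lines. Between the precipitates only mt-Tp is called, at −1.24.

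Both rRNAs were called higher than Input in either precipitate, and neither was called between acRIP and IgG, where their values lay under 2-fold. mt-Rnr2 (chrM:1094-2675, plus strand) is the 16S rRNA of the large mitochondrial ribosomal subunit. Its counts were 32410, 22476 and 23190 in Input, 59618, 78427 and 81815 in IgG, and 129506, 140424 and 136963 in acRIP. Scaled to library totals this was 1033 ± 12.2 CPM in Input, 4215 ± 168 in IgG and 7927 ± 343 in acRIP (mean ± SD, n = 3), and the groups did not overlap. The fitted log2 fold change was 3.02 (standard error 0.03, adjusted p = 8.67e-37) in acRIP over Input and 2.06 (standard error 0.03, adjusted p = 2.27e-32) in IgG over Input. Between acRIP and IgG it was 0.96 (standard error 0.03, adjusted p = 2.33e-22), a 1.95-fold difference just under the 2-fold limit, and it crossed that limit at 1.01 with upper quartile normalization.

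mt-Rnr1 (chrM:70-1024, plus strand) is the 12S rRNA of the small subunit, the mitochondrial counterpart of the cytosolic 18S rRNA, which is known to carry ac4C. Its counts were 2478, 1676 and 1724 in Input, 4953, 6370 and 6676 in IgG and 7777, 8435 and 7809 in acRIP. Every acRIP library lay above every IgG library, and every IgG library above every Input library, in CPM. mt-Rnr1 rose by 2.67 (standard error 0.04, adjusted p = 1.37e-30) in acRIP over Input and by 2.18 (standard error 0.04, adjusted p = 1.83e-28) in IgG over Input on the log2 scale. In acRIP over IgG the difference was 0.49 (standard error 0.04, adjusted p = 2.13e-11), or 1.40-fold, and was not called.

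The 2 rRNAs, which are cut from neighbouring stretches of the same precursor, did not keep a constant proportion to each other. mt-Rnr2 had 13.1, 13.4 and 13.5 counts per count of mt-Rnr1 in the Input libraries, 12.04, 12.3 and 12.3 in IgG and 16.7, 16.6 and 17.5 in acRIP. The ratio was 1.39-fold higher in acRIP than in IgG and 1.27-fold higher than in Input, and 1.09-fold lower in IgG than in Input, with no overlap between groups and p = 0.1 (two-sided exact permutation test, the smallest possible) for each. Since it is formed within a library, the scaling between libraries does not enter it. Measured against the summed mitochondrial mRNAs in the same way, mt-Rnr2 was 0.159 to 0.181 counts per mRNA count in Input, 0.783 to 0.809 in IgG and 1.75 to 1.88 in acRIP. That ratio was thus 10.8-fold higher in acRIP than in Input, 4.69-fold higher in IgG than in Input and 2.31-fold higher in acRIP than in IgG, again at p = 0.1 (exact permutation test). Taken over the 5 mRNAs without identical nuclear copies, which are described further on, the acRIP over Input difference was 2.89 on the log2 scale in place of 3.44.

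**Figure D3:**
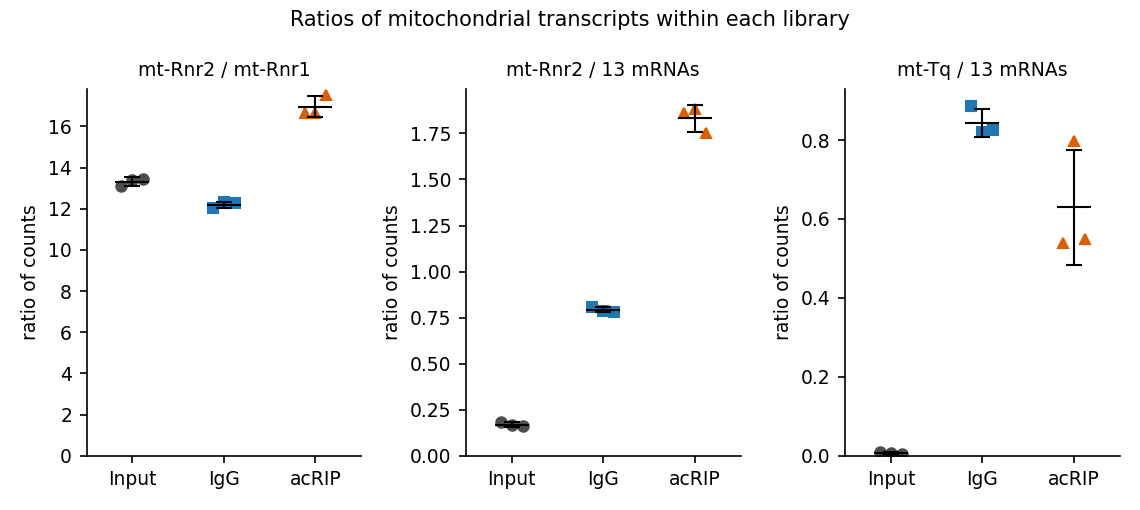
Ratio of counts within each library (points, 3 libraries a group) with the mean and SD (black), for mt-Rnr2 to mt-Rnr1, mt-Rnr2 to the summed mitochondrial mRNAs, and mt-Tq to the summed mRNAs. acRIP is highest in the first and second panel, with mt-Rnr2 to mt-Rnr1 between 16.6 and 17.5, and IgG is highest in the last, where its libraries lie between 0.821 and 0.885.

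Nuclear loci listed as rRNA-like also differed between the groups. The 18S rRNA locus CT010467.1 took 0.540% to 0.613% of the counts of an Input library, 5.14% to 5.57% in IgG and 9.35% to 10.6% in acRIP, with fitted log2 fold changes of 4.20 in acRIP over Input, 3.25 in IgG over Input and 0.95, not called, in acRIP over IgG. The other 2 such loci, Lars2 and Gm15564, were called higher in all 3 comparisons, at 1.55 and 1.78 in acRIP over IgG, 5.14 and 5.32 in acRIP over Input and 3.59 and 3.54 in IgG over Input. Whether reads on Lars2 and Gm15564 came from rRNA was not tested. The part of the listed loci in the results for the mitochondrial rRNAs was not tested either. Without the 18S locus in the totals, the mitochondrial share differed by 0.18 in acRIP over IgG on the log2 scale, in place of 0.10.

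mt-Tq of the minus strand had at least 620 counts in every Input library and was called higher in both precipitates. By the rule that a tRNA is described where every library of some group held at least 10 counts, 6 tRNAs are described, of which 5 lie on the minus strand. Apart from mt-Tq they met this rule and the low-count filter through precipitated libraries, so their higher level than Input follows from the choice and their values against Input are a description. The 5 of the minus strand are printed here, read 5′ to 3′ along the tRNA in the DNA letters of the mouse reference chromosome (build GRCm38, the RefSeq counterpart of mm10), because they held nearly all tRNA counts. The anticodon is in capitals.
mt-Tq: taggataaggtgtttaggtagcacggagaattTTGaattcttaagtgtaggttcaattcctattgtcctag
mt-Tc: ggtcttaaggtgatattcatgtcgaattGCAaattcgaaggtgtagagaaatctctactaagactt
mt-Ta: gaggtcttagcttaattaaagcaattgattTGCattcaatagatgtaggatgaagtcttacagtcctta
mt-Te: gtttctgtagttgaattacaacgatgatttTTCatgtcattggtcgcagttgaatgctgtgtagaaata
mt-Tp: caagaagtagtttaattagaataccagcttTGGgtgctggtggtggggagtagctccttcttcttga

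mt-Tq (chrM:3772-3842, minus strand), the glutamine tRNA gene between mt-Ti and mt-Tm, had more counts than any other mitochondrial gene in every IgG library and came after mt-Rnr2 in every acRIP library. It held 1490, 866 and 620 counts in Input, 65273, 81890 and 86196 in IgG and 37570, 59481 and 43023 in acRIP. The IgG libraries were highest, the acRIP libraries came next and the Input libraries were far below both, without overlap in CPM. It rose by 6.89 (standard error 0.11, adjusted p = 5.98e-31) in IgG over Input on the log2 scale and by 6.21 (standard error 0.11, adjusted p = 5.10e-30) in acRIP over Input. Between the precipitates it differed by −0.68 (standard error 0.08, adjusted p = 3.69e-08), 1.60-fold lower and not called. Within a library, mt-Tq had 0.00426 to 0.00833 counts per mitochondrial mRNA count in Input, 0.821 to 0.885 in IgG and 0.540 to 0.798 in acRIP. The highest of the acRIP values, in replicate 2, lay close to the lowest of IgG. Without mt-Tq, a step added after the data were seen, the mitochondrial share of counts differed by 0.36 in acRIP over IgG, 0.82 in acRIP over Input and 0.46 in IgG over Input on the log2 scale, in place of 0.10, 1.09 and 0.99.

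mt-Tc (chrM:5192-5257, minus strand), the cysteine tRNA gene, held 8, 6 and 3 counts in Input, 290, 408 and 344 in IgG and 331, 354 and 275 in acRIP. The fitted log2 difference was 6.47 (standard error 0.24) in IgG over Input and 6.42 (standard error 0.24) in acRIP over Input, while acRIP and IgG overlapped (−0.05, standard error 0.14, adjusted p = 0.778). mt-Ta (chrM:5018-5086, minus strand), the alanine tRNA gene of the same cluster, held 2, 6 and 12 counts in Input, 54, 124 and 92 in IgG and 84, 74 and 74 in acRIP. Both precipitates lay above Input, by 4.23 (standard error 0.42) in IgG and 4.11 (standard error 0.42) in acRIP, and overlapped each other. Without Input replicate 3, the highest of Input, these were 5.04 and 4.92. The other genes of this minus-strand cluster did not share such counts, since mt-Tn had between 0 and 9 counts in every library and mt-Ty 0 or 1. For mt-Ty, 29.4% of the read-length windows over the gene have an identical copy in the nuclear genome.

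mt-Te (chrM:14071-14139, minus strand), for glutamate, lies directly beside mt-Nd6 on the same strand. It held 4, 2 and 0 counts in Input, 18, 36 and 28 in IgG and 30, 46 and 32 in acRIP, with fitted differences from Input of 4.24 (standard error 0.65) in IgG and 4.71 (standard error 0.64) in acRIP. Without Input replicate 1 these were 4.94 and 5.41. mt-Tp (chrM:15356-15422, minus strand), for proline, held 12, 2 and 7 counts in Input, 37, 44 and 60 in IgG and 22, 10 and 24 in acRIP. It was the only member called lower in acRIP than in IgG, at −1.24 (standard error 0.47, adjusted p = 0.0234), and that call was lost without IgG replicate 3, without acRIP replicate 2 and in a test against 2-fold. Over the 9 fits that left out a library it stood between −1.45 and −0.89. Against Input mt-Tp stood at 3.32 (standard error 0.53) in IgG and at 2.08 (standard error 0.55) in acRIP.

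The plus-strand tRNAs had few counts, which cannot be read as low tRNA levels, since the handling of reads that touch a neighbouring gene is not stated. mt-Ts2 (chrM:11613-11671), for serine, held 2, 0 and 0 counts in Input, 6, 10 and 10 in IgG and 14, 18 and 14 in acRIP. From the summed counts, its CPM was 33.8 times that of Input in acRIP (exact 95% interval 8.84 to 287) and 18.9 times in IgG (4.73 to 164), and if pairs were counted the intervals widen to 5.49 to 1392 and 2.84 to 802. Both Input counts came from replicate 1. The remaining 16 tRNAs comprised 10 with between 1 and 36 counts in their highest library and 6 with no count anywhere (mt-Tw, mt-Ts1, mt-Td, mt-Tk, mt-Tg and mt-Th). mt-Tf, for phenylalanine, did not meet the rule for description and is named because it had counts in acRIP alone. These were 6, 10 and 10, with none in Input or IgG. Set against the limit of 3 counts a library, its observed acRIP level was 2.87 times that of IgG and 4.11 times that of Input. Against 6 counts these were 1.43 and 2.05 times. These values take the acRIP counts as exact, and the gene was picked by those counts, so they are no test of a difference. Of the 6 tRNAs without counts, mt-Ts1, mt-Td, mt-Tk and mt-Tg lie in a nuclear copy, set out with the mRNAs, without a difference inside the gene. Read-length windows over mt-Tg matched it exactly in 3.57%, against 100% for the other 3. mt-Th lay over 100% of its length in another, near-identical nuclear copy that is not set out here, with 0 windows matching exactly.

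**Figure D4:**
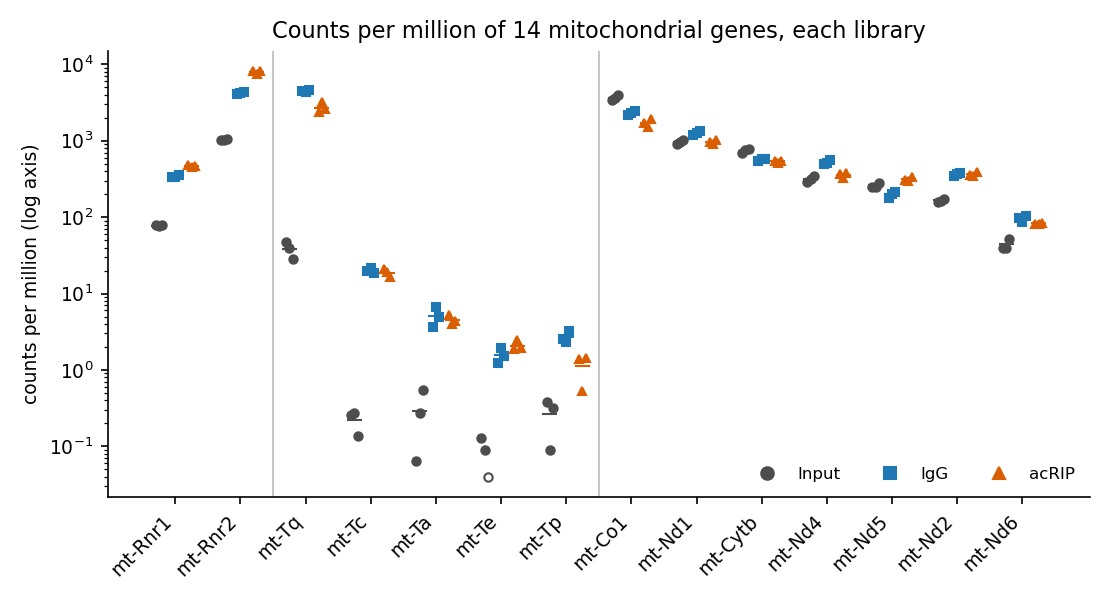
CPM in each library (log axis) for 14 mitochondrial genes, with rRNAs, minus-strand tRNAs and the 7 abundant mRNAs separated by vertical lines, points for the 3 libraries of a group and short lines for their means. An open symbol at the lower edge marks a count of 0, and there no mean is drawn. Each tRNA's Input points lie below its IgG and acRIP points, with a narrow gap to acRIP for mt-Tp (12 counts in its highest Input library, 10 in its lowest acRIP library).

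The mRNAs fell into a group with many counts and a group with hardly any. Of the 13, 7 had at least 500 counts in every library (mt-Co1, mt-Nd1, mt-Cytb, mt-Nd4, mt-Nd5, mt-Nd2 and mt-Nd6), and the other 6 (mt-Co2, mt-Co3, mt-Atp6, mt-Atp8, mt-Nd3 and mt-Nd4l) never exceeded 64. In Input, mt-Co1 was highest at 2353 ± 180 FPKM (mean ± SD, n = 3), before mt-Nd1 at 1006 ± 58.5, mt-Rnr2 at 653 ± 7.74, mt-Cytb at 644 ± 32.6, mt-Nd4 at 230 ± 18.1, mt-Nd2 at 159 ± 7.96, mt-Nd5 at 143 ± 9.82, mt-Nd6 at 84.6 ± 13.97 and mt-Rnr1 at 81.3 ± 1.56. Neighbours whose libraries overlapped in this order were mt-Rnr2 and mt-Cytb, mt-Nd2 and mt-Nd5, and mt-Nd6 and mt-Rnr1. mt-Tq, at 539 ± 139 FPKM, overlapped mt-Cytb, but a value per length means little for a gene shorter than a read. In IgG mt-Rnr2 stood above mt-Co1, at 2664 ± 106 against 1494 ± 83.1 FPKM, and in acRIP at 5011 ± 217 against 1116 ± 126.

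mt-Co1 (chrM:5328-6872), the catalytic subunit of cytochrome c oxidase (complex IV), held 105463, 79809 and 86986 counts in Input, 31882, 43496 and 45243 in IgG and 27614, 28528 and 32202 in acRIP. It made up 58.95% to 59.8% of the mitochondrial mRNA counts in Input, 43.2% to 43.6% in IgG and 38.3% to 41.2% in acRIP. Its libraries did not overlap between groups, and the difference was −0.997 (standard error 0.05, adjusted p = 4.62e-18) in acRIP over Input, −0.62 (standard error 0.05) in IgG over Input and −0.37 (standard error 0.05) in acRIP over IgG. None was called. The first lay 1.996-fold down, just inside the limit, and crossed it with upper quartile normalization (−1.05) and with total counts (−1.08).

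mt-Nd5 (chrM:11742-13565) encodes a large proton-pumping subunit of complex I (NADH dehydrogenase). Its counts were 7847, 5507 and 6241 in Input, 2592, 3820 and 3964 in IgG and 4937, 5467 and 5561 in acRIP. Its share of the mitochondrial mRNA counts was 4.09% to 4.39% in Input, 3.52% to 3.83% in IgG and 7.10% to 7.34% in acRIP. Its acRIP over IgG value was the highest of the tested mRNAs, 0.70 (standard error 0.06, adjusted p = 5.10e-12), or 1.62-fold, which was not called. The direction of IgG over Input was the opposite, at −0.36 (standard error 0.06).

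mt-Nd2 (chrM:3914-4951), a membrane subunit of complex I, was the only mRNA called higher than Input in both precipitates in the fit of 22510 genes, while other settings, given with mt-Nd6, called that gene in both as well. It held 4954, 3595 and 3867 counts in Input, 5035, 6931 and 7092 in IgG and 5719, 6384 and 6475 in acRIP. It rose by 1.21 (standard error 0.05, adjusted p = 1.00e-20) in acRIP over Input and by 1.17 (standard error 0.05, adjusted p = 2.63e-20) in IgG over Input, and the precipitates overlapped (0.04 in acRIP over IgG, adjusted p = 0.507). Its part of the mitochondrial mRNA counts was 2.66% to 2.77% in Input, 6.78% to 6.94% in IgG and 8.22% to 8.57% in acRIP.

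mt-Nd6 (chrM:13552-14070), the only mRNA of the minus strand and also a complex I subunit, overlaps the end of mt-Nd5 on the plus strand. It held 1241, 877 and 1160 counts in Input, 1412, 1639 and 1921 in IgG and 1318, 1508 and 1416 in acRIP. It was called higher in IgG than in Input, by 1.16 (standard error 0.08, adjusted p = 4.98e-14), a call lost in a test against 2-fold. For acRIP over Input it stood at 0.99 (standard error 0.08), just under the limit, and it was called by DESeq2 (1.01), with RLE normalization (1.01), with the 10-count filter and in 5 of the 9 fits that left out a library. The sources used here do not state that strand was used in counting, and Smart-seq2 does not mark it, so reads of a gene and of the opposite strand cannot be told apart for mt-Nd6 or for the minus-strand tRNAs.

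The other abundant mRNAs moved by less than 2-fold in every comparison. mt-Nd1 (complex I) held 28363, 21278 and 22567 counts in Input, 17366, 23385 and 24787 in IgG and 15273, 16859 and 16949 in acRIP, and was −0.34 (standard error 0.04) in acRIP over IgG. mt-Nd4 (complex I) held 9115, 7002 and 7557 counts in Input, 7362, 9677 and 10554 in IgG and 5906, 6135 and 6365 in acRIP, and was 0.77 (standard error 0.05) in IgG over Input but −0.51 (standard error 0.05) in acRIP over IgG. mt-Cytb, the cytochrome b of complex III, held 21821, 16408 and 17076 counts in Input, 8032, 10772 and 10861 in IgG and 8722, 9575 and 9206 in acRIP. It was −0.38 (standard error 0.04) in acRIP over Input and −0.04 (standard error 0.04, adjusted p = 0.405) in acRIP over IgG, where its libraries overlapped.

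The 6 mRNAs with hardly any counts are those whose sequence lies wholly or nearly so in the nuclear genome as well. A stretch of chromosome 1 (chr1:24611535-24616188, minus strand) copies chrM:6390-11042 at 99.936% identity, which takes in the end of mt-Co1, the start of mt-Nd4 and every gene between. For reads of the length given in the methods, 100% of the windows of mt-Co2, mt-Atp8, mt-Atp6, mt-Co3 and mt-Nd4l, and 98.5% of those of mt-Nd3, occur letter for letter in the nuclear genome. The share was 59.1% for mt-Nd4, 23.6% for mt-Co1 and 0 for mt-Nd1, mt-Nd2, mt-Nd5, mt-Nd6, mt-Cytb and both rRNAs. Only uniquely mapped reads were counted, so the values of the 6 genes are no measure of their expression, and mt-Nd4 and mt-Co1 were counted over part of their length.

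The copy differs from the mitochondrial reference sequence at 3 places, which are shown on the plus strand of chrM with the base concerned in capitals. A read inside the copied stretch that spans none of them matches both sequences, though its mate may still place the pair. Whether the ICR mice carry the reference bases at these places was not examined. Positions are counted from 1 at the start of chrM, with the mitochondrial base first and the base of the copy last. A6393T lies in mt-Co1, T9461C in mt-Nd3, and at 9828, in mt-Tr, the copy has 1 inserted base.
A6393T: ggtctaaccggaAttgttttatcca
T9461C: gaagagagtaatTaacctgtacact
9828: agtttaaaaaaaAttaatgatttcg

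Annotated genes over the copy received counts as well. The bases that the ICR mice carry where copy and reference differ were not examined. Reads of mitochondrial and of nuclear origin therefore cannot be told apart in these counts. Gm28438, the annotated copy of mt-Nd3, held 564, 362 and 394 counts in Input, 369, 569 and 476 in IgG and 294, 383 and 349 in acRIP, whereas mt-Nd3 itself held between 0 and 12. The copies of mt-Co3, mt-Atp6, mt-Co2 and mt-Co1 on chromosome 1 held between 27 and 116 counts in any library. Against Input, Gm29216, the copy of the end of mt-Co1, was called higher in acRIP, at 1.32 (standard error 0.28, adjusted p = 8.95e-05), and in IgG, at 1.42 (standard error 0.27, adjusted p = 5.53e-05). mt-Co1 lay in the opposite direction in both. Of the low genes, mt-Co3 held 58, 44 and 64 counts in Input, 20, 48 and 62 in IgG and 38, 31 and 40 in acRIP, mt-Co2 held 4 to 24 and mt-Atp6 9 to 20 over all libraries, and none of these passed the test in any comparison. mt-Atp8, mt-Nd3 and mt-Nd4l did not pass the filter.

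**Figure D5:**
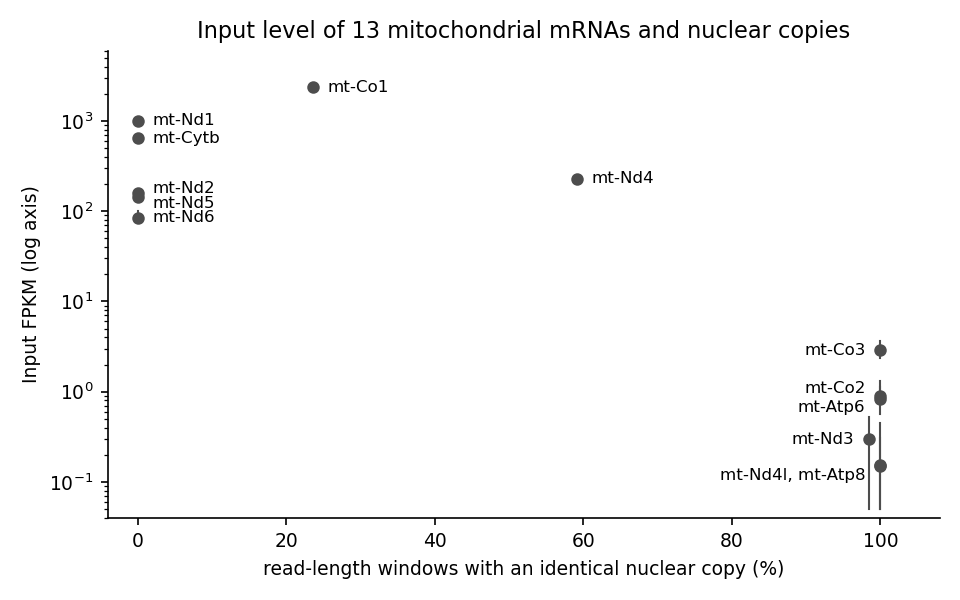
Mean Input level (FPKM, log axis) of the 13 mitochondrial mRNAs against the share of their read-length windows with an identical nuclear copy (%), with vertical lines for the range of the 3 Input libraries. Lines that end at 0.05 include a library with no count. The 6 genes at 98.5% or 100% lie at or below 2.86 FPKM, and the others lie at or above 84.6 FPKM.

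The members' base composition was also described, since ac4C is a modified cytidine. Cytidine made up 19.7% of mt-Rnr1 and 19.2% of mt-Rnr2, between 22.1% and 30.0% of the plus-strand mRNAs, 5.97% of mt-Nd6 and 11.3% of mt-Tq. These shares are those of the annotated strand, and reads of the opposite strand cannot be told apart for mt-Nd6 and mt-Tq. The rRNAs held a lower share of cytidine than any plus-strand mRNA and a higher share than mt-Nd6. A link between these shares and the recovery of a gene was not tested.

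Nuclear genes whose products act with these transcripts were taken from lists of known members. Of 80 tested nuclear subunits of oxidative phosphorylation, 4 were called higher and 1 lower in acRIP over Input. In IgG over Input 0 and 1 were called, and 2 and 1 in acRIP over IgG. At an unadjusted edgeR p under 0.05 and any fold, 53 were higher and 16 lower, 45 and 14, and 36 and 20 in the same order. The share of all genes at that looser limit was not computed, so such counts cannot be set against it. Over all tested genes the shares called higher and lower were 17.7% and 22.9%, 13.5% and 7.22%, and 11.5% and 20.9% in the same order. The median log2 fold changes of the subunits were 0.30, 0.20 and 0.09. Of 78 mitochondrial ribosomal protein genes, which encode the protein partners of the rRNAs, 2 were higher and 4 lower in acRIP over Input. In IgG over Input 0 were called, and the medians were 0.11 and 0.08. Of these 78, 2 were higher and 3 lower in acRIP over IgG, with a median of 0.0059. The shares called over all genes are those just given. At the looser limit, 35 were higher and 24 lower in acRIP over Input, 28 and 18 in IgG over Input, and 30 and 23 in acRIP over IgG. The 33 tested genes of mitochondrial RNA processing and modification had 3 higher and 9 lower in acRIP over Input and a median of −0.27. Between acRIP and IgG they had 2 higher and 8 lower, beside 11.5% and 20.9% of all genes. Among them Nsun3, which methylates a mitochondrial tRNA, fell by 2.68 (standard error 0.25) and Fastkd1, of a family of mitochondrial RNA-binding proteins, rose by 1.52 (standard error 0.17). Mettl15, a methyltransferase of 12S rRNA, had 173 to 246 counts in Input libraries, 50 to 82 in IgG and 0 in every acRIP library. Polrmt, the mitochondrial RNA polymerase, and Tfam, which packages mitochondrial DNA and starts its transcription, were not called in any comparison, with acRIP over IgG at 0.33 (standard error 0.14) and 0.33 (standard error 0.05). Mtpap, the mitochondrial poly(A) polymerase, stood at 0.18 (standard error 0.12) and Lrpprc, which stabilises mitochondrial mRNAs, at −0.43 (standard error 0.09). Pnpt1, of the mitochondrial RNA-degrading complex, fell in both precipitates, by 1.02 (standard error 0.13) in acRIP over Input and by 1.11 (standard error 0.13) in IgG over Input.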

How the data were processed

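Per the labels, 3 Input, 3 IgG and 3 acRIP libraries of WT testis were grouped. The authors deposited raw counts for each gene, made from reads that mapped uniquely. Per the submitters' processing notes and the methods, Trim Galore 0.6.7, STAR 2.7.10a (mm10) and featureCounts 2.0.2 were used. The annotation release and strand setting are not given in the sources used here. Columns of per-sample values not used numbered 0.

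In R 4.3.3, edgeR 4.0.16 was run on them (low-count filter filterByExpr, TMM scaling, quasi-likelihood test) in a single fit of all 9 libraries, with Benjamini-Hochberg adjustment over 22510 genes. TMM centred the median of all genes near 0. CPM and FPKM were computed here from total counts and deposited gene lengths. On simulated counts of acRIP over IgG with 200 changed genes among 21597, edgeR recovered 99% and called 4 unchanged genes. The simulation gave all genes the same dispersion and as many rises as falls. In the data 2590 genes were called higher and 4701 lower in that comparison, so these rates do not carry over to it. Nuclear copies were found with blastn 2.17.0 at 90% identity or more and by exact matches of read-length windows in GRCm38. No pair of libraries of a group were near copies, since the chi-square per gene lay between 3.85 and 5.84.

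All members are reported, mRNAs and rRNAs each and tRNAs with at least 10 counts in every library of a group. From each nuclear list the highest and lowest called genes and a set of named regulators were eligible. Members and lists were chosen with earlier results of these data known. Alternatives were other normalizations, low-count filters, DESeq2 1.42.0, glmTreat, limma 3.58.1 on log2(FPKM + 1) or log2(FPKM + 0.1), halved counts, blocking on replicate number, and leaving out each library in turn. Shares without mt-Tq and the ratio of mt-Tq to mRNAs were added after the data were seen.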

Additional observations from a re-analysis of the deposited data

How the results depend on the processing

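Over the 13 alternative fits and the 9 that left out a library, the rRNAs kept their direction in all 3 comparisons and were called higher than Input in each, and mt-Rnr2 in acRIP over IgG was called only with upper quartile normalization (1.01). The share of counts in acRIP over IgG turned to −0.47 without the rRNAs and to −0.58 with summed FPKM, and was 0.18 without the 18S locus and 0.36 without mt-Tq. In acRIP over Input the share was 0.21, 2.81, 1.23 and 0.82 in that order, and in IgG over Input 0.68 without the rRNAs, 3.395 with FPKM and 0.46 without mt-Tq. With mRNAs lacking identical nuclear windows alone, mt-Rnr2 to mRNAs was 1.05, 2.89 and 1.83 for acRIP over IgG, acRIP over Input and IgG over Input, and mt-Rnr1 to mRNAs 0.58, 2.54 and 1.96; mt-Rnr2 to mRNAs by FPKM was 2.12 for IgG over Input.

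Members called higher in acRIP over IgG numbered 1 with upper quartile normalization (mt-Rnr2) and 1 without the filter (mt-Tf), and lower 0 with glmTreat and 0 under the filter of at least 10 counts in every library. In acRIP over Input 17 were higher without the filter and 5 with the 10-count filter, which left 11 members, and 1 was lower (mt-Co1) with upper quartile, total counts and both limma fits. Over all genes, 4297 of 35699 were higher without the filter and 2495 of 16047 with the 10-count filter. In IgG over Input 5 were higher with the 10-count filter, beside 1906 of 16047 genes. The mRNA median of acRIP over Input was 0.22 with total counts, 0.18 with the 10-count filter, 0.17 and 0.22 with limma (pseudocounts 1 and 0.1) and 0.18 with halved counts, and that of IgG over Input 0.19 with upper quartile, 0.38 without the filter and 0.21 with either limma fit.

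Leaving out 1 library gave 0 to 1 called higher and 0 to 1 lower in acRIP over IgG, 12 to 14 higher and 0 to 1 lower in acRIP over Input, and 12 to 13 higher in IgG over Input. Over all tested genes of these fits, 3945 to 4186 were higher in acRIP over Input and 2986 to 3264 in IgG over Input. mRNA medians ranged from −0.20 to −0.060, 0.23 to 0.32 and 0.12 to 0.48. mt-Tf was called higher in acRIP over IgG without IgG replicate 1, IgG replicate 3 or acRIP replicate 1, mt-Co1 lower in acRIP over Input without Input replicate 1, Input replicate 2 or acRIP replicate 3, and mt-Tt lost its call in IgG over Input without IgG replicate 2 or Input replicate 1. Deviations of same-numbered libraries of different groups correlated between −0.007 and 0.035, and those of unlike numbers between −0.029 and 0.027. With few libraries and many genes of low count, this cannot show whether equal numbers mark a shared RNA preparation. With the replicate block, 12 members were called higher in acRIP over Input (mt-Nd6 added, 1.002), beside 3907 of 22510 genes. There mt-Rnr2 stood at 0.96 in acRIP over IgG. The causes of these changes were not tested. Counts under 10 limit the tRNAs other than mt-Tq.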
